A study of Mus musculus with 12 samples.

Results

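The S100 genes described here are 10 members of the S100 family, S100a1, S100a4, S100a6, S100a8, S100a9, S100a10, S100a11, S100a13, S100a14 and S100b, taken by symbol from a table of read counts for 16411 genes. All 10 have a row in the table, and 8 had enough reads to be tested among the 13191 genes that passed the expression filter. S100a8 and S100a9 did not pass it. The samples were 6 HER2-driven mammary tumors and 6 benign mammary tissues from female MMTV-Neu-NDL-YD5 transgenic mice on an FVB background, and no mouse was treated. In this heterozygous line the mouse mammary tumor virus promoter drives an activated Neu receptor (the rodent HER2) in mammary epithelium, with only the YD tyrosine site restored. Benign samples are transgenic mammary tissue without a visible tumor, taken far from the tumors, so they are not tissue of wild-type mice. Tumors and benign samples came from different mice, and the ages of single mice are not in the labels.

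S100 proteins are small calcium sensors that carry a pair of EF-hand motifs and mostly work as dimers. Calcium opens a surface on the dimer that binds partners such as annexins, myosins and kinases, and some S100 proteins are also secreted and signal through receptors such as RAGE (Ager), TLR4 and basigin (Bsg). Most mouse S100 genes lie together on chromosome 3, while S100b lies alone on chromosome 10. S100A4 is linked to stroma and metastasis, S100A8 and S100A9 to neutrophils, and S100B to glia, melanocytes and fat cells.

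Totals ran from 5240853 to 8170687 counts in benign libraries and from 6111393 to 8588567 in tumors. Values are CPM, counts relative to the size of the library after TMM scaling, and folds are log2 fold changes of tumor over benign with their standard error (SE), from edgeR's quasi-likelihood test with Benjamini-Hochberg adjustment over all tested genes. A gene was called at an adjusted p under 0.1. Erbb2, the gene of the receptor, stood at 56.8 ± 11.2 CPM in the benign group against 7411 ± 5090 CPM in the tumor group (SD, n = 6 each), and of 9 epithelial markers 7 were higher in tumors. Benign tissue was mixed: the 8 white fat markers summed to between 11449 and 24561 CPM in benign samples and to at most 145 CPM in tumors. Benign replicates 3, 4 and 6 also carried skeletal muscle RNA, with 13 muscle markers summing to between 37814 and 96164 CPM against at most 402 CPM in the other benign samples. Benign replicates 4 and 6 were rich in Ucp1, the uncoupling protein of brown fat, at 1434 and 217 CPM, while the other 4 benign samples held at most 41.0 CPM. Benign replicate 1 alone held lymphocyte RNA, with 8 markers summing to 903 CPM against at most 15.2 CPM elsewhere. These are bulk tissues, so fewer cells of a type and less RNA per cell cannot be told apart for any gene below.

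Of the 8 S100 genes tested, S100b was higher in tumors, S100a4, S100a6, S100a10 and S100a13 were lower, and S100a1, S100a11 and S100a14 did not pass the test. Over all tested genes 28.2% were higher in tumors and 34.8% were lower, and counts of 1 and 4 among 8 genes are read against those shares. No statement on the family as a group rests on them. The median log2 fold change was -0.34 over the 8 S100 genes and -0.06 over all tested genes. In S100a4 and S100a10 every tumor lay below every benign sample, a pattern shown by 21.2% of tested genes, and no S100 gene of the list had every tumor above every benign sample, a pattern shown by 14.7%. The plot of CPM by sample gives the 12 values of each gene.

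**Figure D1:**
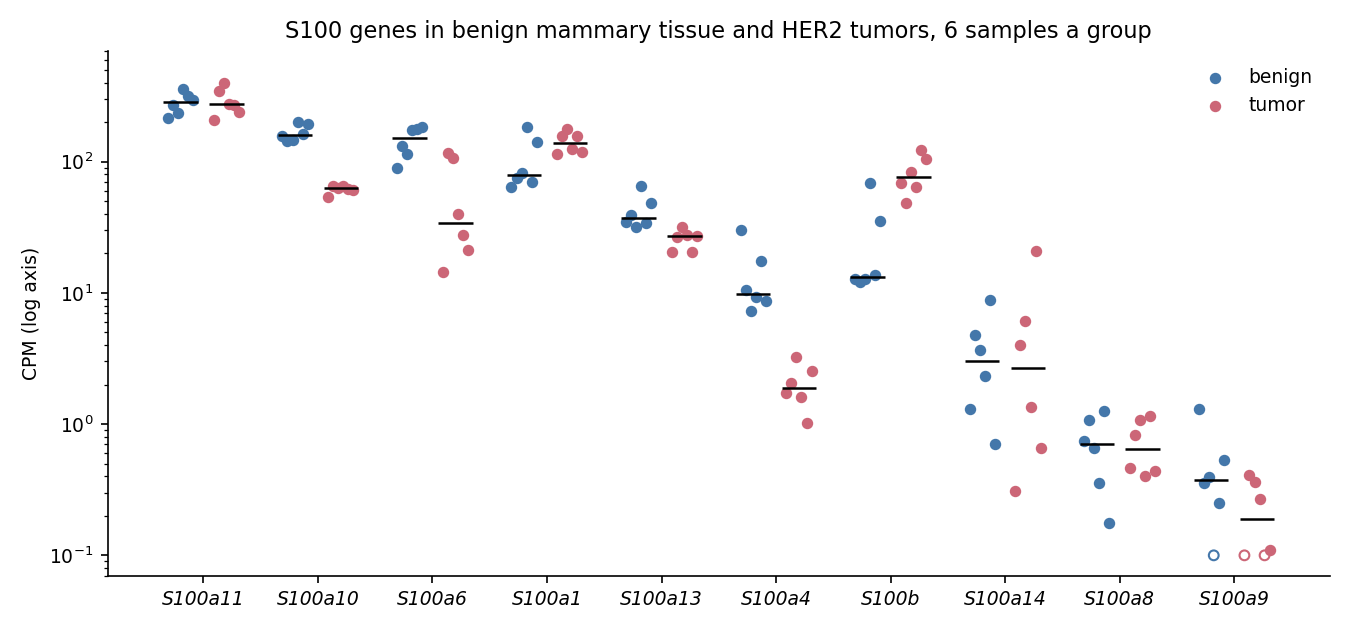
CPM of the 10 S100 genes (log axis) in 6 benign samples (blue) and 6 tumors (red), with 1 point a sample, replicates 1 to 6 from left to right and a black line at the group median. Open circles at the bottom mark samples with 0 counts. S100a4 and S100a10 do not overlap between groups, S100b is high in tumors and in benign replicates 4 and 6, and S100a8 and S100a9 stay near the detection limit.

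All positions are on GRCm38 (mm10). Along chromosome 3 the genes run in the order S100a1 (chr3:90511034-90514392, minus strand), S100a13 (chr3:90514435-90524581), S100a14 (chr3:90526856-90528837), S100a4 (chr3:90603771-90606045), S100a6 (chr3:90612882-90624181), S100a8 (chr3:90668978-90670035) and S100a9 (chr3:90692632-90695721, minus strand). This first cluster spans 184.7 kb. After a long interval that holds epidermal differentiation genes follow S100a11 (chr3:93520488-93526287) and S100a10 (chr3:93555080-93564643). S100b lies at chr10:76253853-76261159. The exons of S100a4 overlap the predicted gene Gm42674, which has no row in the table, and no other member shares exons with another annotated gene. Between S100a1 and S100a10 lie 112 other annotated genes, of which 16 are in the table and 2 were tested. These were S100a16, which was higher in tumors, and Sprr1a, a cornified envelope gene that was lower (log2 fold change -1.57, SE 0.71, edgeR adjusted p = 0.077).

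**Figure D2:**
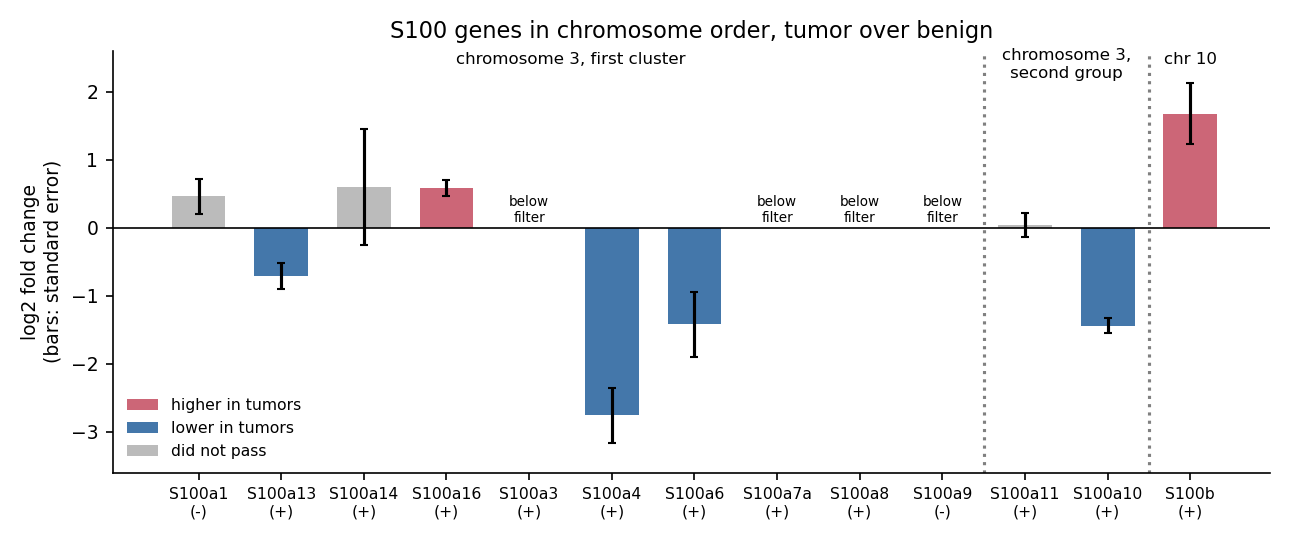
Log2 fold change of tumor over benign with its SE for the S100 genes of the table in chromosome order, with the strand under each name. Red marks genes higher in tumors, blue lower and grey not past the test. Neighbours differ in direction within the first cluster, where S100a13, S100a4 and S100a6 are lower and S100a16 is higher.

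The start sites of S100a1 and S100a13 lie back to back, with 42 bases between the annotated first bases of both genes. The stretch is shown because these neighbours moved apart in the tumors, as given further on. Sequences are from RefSeq on GRCm38, which held the promoter window of 8 of the 10 genes (all but S100a10 and S100a14). The 42 bases at chr3:90514393-90514434, read on the plus strand towards S100a13, hold no TATA box (TATAAA), no GC box (GGGCGG) and no AP-1 site (TGANTCA) on either strand, and so carry no capitals.
S100a1 and S100a13: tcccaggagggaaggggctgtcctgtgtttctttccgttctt
The windows around their RefSeq start sites run from 250 bases before to 50 bases after the first base. They hold 11 CpG for S100a1 and 14 for S100a13, against a median of 7 over 32851 windows. Both windows overlap (chr3:90514281-90514580 and chr3:90514185-90514484), so these are not separate counts.

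The upstream sequences of S100a4, S100b and S100a11 are shown next, as those of the S100 genes with the deepest fall, with the rise and with the highest level. Each is printed on the plus strand, on which the genes lie, with the TATA box, GC box and AP-1 letters (searched on both strands) in capitals. The stretches are chr3:90603520-90603769 for S100a4, chr10:76253586-76253835 for S100b and chr3:93520246-93520487 for S100a11.
S100a4: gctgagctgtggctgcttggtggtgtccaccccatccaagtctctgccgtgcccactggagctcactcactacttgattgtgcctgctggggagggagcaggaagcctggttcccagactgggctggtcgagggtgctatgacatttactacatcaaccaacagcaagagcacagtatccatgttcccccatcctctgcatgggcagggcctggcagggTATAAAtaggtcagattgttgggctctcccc
S100b: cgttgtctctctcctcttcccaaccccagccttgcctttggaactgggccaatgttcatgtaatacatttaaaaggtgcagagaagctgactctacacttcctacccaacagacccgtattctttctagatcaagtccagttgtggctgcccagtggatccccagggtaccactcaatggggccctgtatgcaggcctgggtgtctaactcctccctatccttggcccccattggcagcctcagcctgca
S100a11: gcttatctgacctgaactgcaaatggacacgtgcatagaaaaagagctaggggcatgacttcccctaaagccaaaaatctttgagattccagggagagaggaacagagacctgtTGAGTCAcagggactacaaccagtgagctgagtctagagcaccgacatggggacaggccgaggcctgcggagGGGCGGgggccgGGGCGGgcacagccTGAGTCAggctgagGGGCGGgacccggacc
S100a4 has a TATA box whose first base lies 31 bases before the start site and only 2 CpG in its window. S100b has none of the 3 motifs, and S100a11 has 3 GC boxes, 2 AP-1 sites and 15 CpG. Over all 32851 windows 13.6% hold TATAAA, 35.7% hold GGGCGG and 7.81% hold TGANTCA. S100a8 also has TATAAA, 30 bases before its start site, and S100a9 has it at the start site itself. These matches describe the letters in the windows, and binding was not measured.

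S100b encodes a calcium sensor of glia, melanocytes and fat cells that binds RAGE and p53. It was the only S100 gene of the list called higher in tumors. Its level ran from 12.2 to 68.4 CPM in benign samples (median 13.2) and from 48.8 to 124 CPM in tumors (median 76.0). Of the 6 tumors, 4 lay above the highest benign sample, and 5 of 6 benign samples lay below the lowest tumor. The log2 fold change was 1.68 (SE 0.45, edgeR adjusted p = 0.0066), from 25.8 ± 22.7 to 82.1 ± 27.8 CPM (SD, n = 6 each).

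The overlap came from benign replicate 4 at 68.4 CPM, and replicate 6 at 35.1 CPM was the next highest benign sample. These are the libraries with the most Ucp1. The other 4 benign samples lay between 12.2 and 13.6 CPM. Without replicates 4 and 6 the benign mean was 13 ± 0.61 CPM (SD, n = 4), every tumor lay above every benign sample, and the log2 fold change was 2.72 (SE 0.26, edgeR adjusted p = 7.6e-06). Benign replicate 3, rich in muscle RNA (58033 CPM over the muscle markers), held 41.0 CPM of Ucp1 and 12.8 CPM of S100b. The part of muscle or brown fat in the S100b level was not tested. In tumors Ucp1 was at 0 counts in 5 of 6 samples and at 6.91 CPM in replicate 5.

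Among 9 Schwann cell markers, the glial cells that S100b marks, 2 were higher and 5 lower in tumors. Sox10, a transcription factor of neural crest and mammary epithelial cells, ran from 37.8 to 230 CPM in benign samples and from 842 to 1133 CPM in tumors (log2 fold change 2.98, edgeR adjusted p = 1.4e-05). Cdh19, a cadherin of Schwann cell precursors, ran from 2.87 to 8.34 CPM in benign samples and from 88.1 to 131 CPM in tumors. The summed list ran from 462 to 724 CPM in benign samples and from 1026 to 1395 CPM in tumors. Sox10 and Cdh19 were thus high in tumors, as S100b was, and their part in the S100b difference was not tested.

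S100a1 encodes the calcium sensor of heart and skeletal muscle that binds the ryanodine receptor and SERCA pumps. It ran from 64.7 to 184 CPM in benign samples (median 78.7) and from 115 to 177 CPM in tumors (median 140). The tumors lay above 4 of the 6 benign samples, and benign replicates 4 and 6 (184 and 140 CPM) lay within or above the tumor range. With all 12 samples S100a1 did not pass the test, at a log2 fold change of 0.46 (SE 0.26, edgeR adjusted p = 0.146).

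This call changed with the libraries kept, and also with the scaling and the filter, as given at the end. Without benign replicates 4 and 6 the log2 fold change of S100a1 was 1.0 (SE 0.15, edgeR adjusted p = 1.9e-04), and without replicates 3, 4 and 6 it was 1.05 (SE 0.16, adjusted p = 5.4e-04). In both cases every tumor lay above every remaining benign sample. With replicates 4 and 6 set aside, the benign mean was 73.7 ± 7.39 CPM (SD, n = 4) against 147 CPM in tumors, a 2.0-fold difference. S100a1 was also called when any of 4 single libraries was left out, with log2 fold changes of 0.71 without benign replicate 4 (adjusted p = 0.013), 0.57 without benign replicate 6 (0.090), 0.57 without tumor replicate 4 (0.0999) and 0.58 without tumor replicate 6 (0.092). Benign replicate 3, rich in muscle RNA and with 41.0 CPM of Ucp1, held 82.2 CPM of S100a1. That is above the 64.7 to 75.2 CPM of the 3 benign samples with the least muscle RNA. The part of muscle or brown fat in the S100a1 level was not tested.

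**Figure D3:**
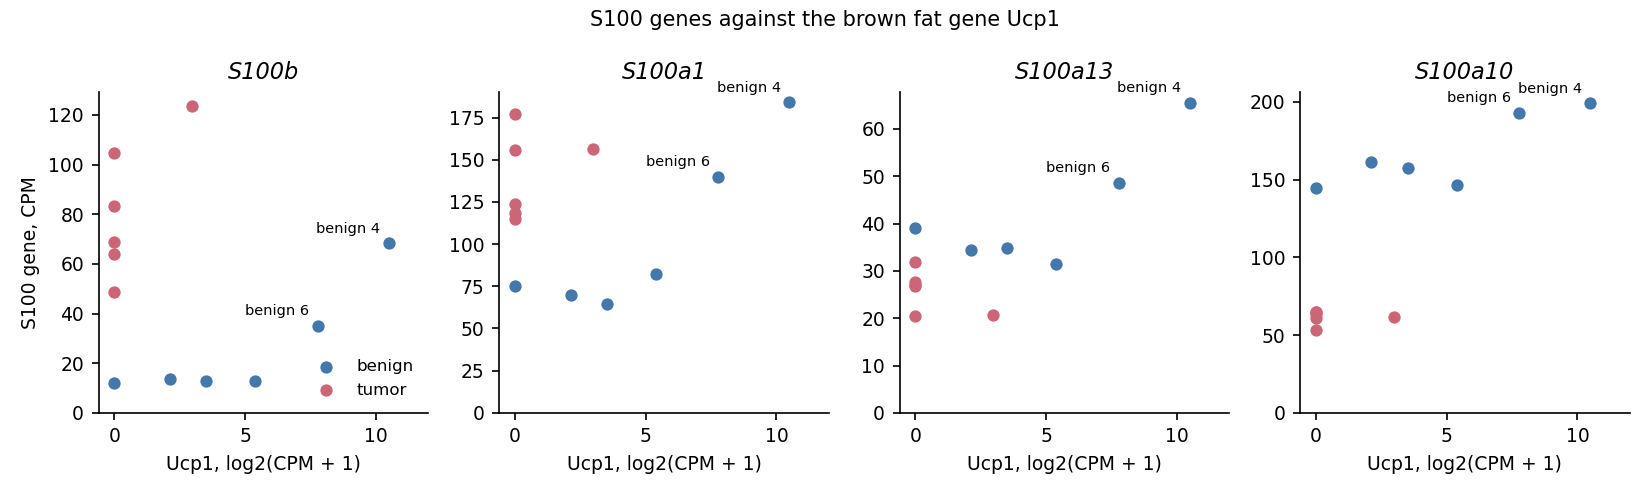
CPM of S100b, S100a1, S100a13 and S100a10 (vertical axes, from 0) against Ucp1 as log2(CPM + 1) in 6 benign samples (blue) and 6 tumors (red), with 1 point a sample. Benign replicates 4 and 6, at 1434 and 217 CPM of Ucp1, have the highest benign level of each of the 4 genes. For S100b and S100a1 every tumor lies above the other 4 benign samples, and S100a10 tumors lie below all 6.

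S100a13 encodes a copper- and calcium-binding protein that helps export Fgf1 and Il1a, which lack a signal peptide. Its level ran from 31.5 to 65.6 CPM in benign samples (median 37.0) and from 20.5 to 31.9 CPM in tumors (median 27.0), and the gene fell. Of the 6 tumors, 5 lay below the lowest benign sample, and tumor replicate 3 (31.9 CPM) lay just above it. The log2 fold change was -0.71 (SE 0.19, edgeR adjusted p = 0.0061). It was -0.39 (SE 0.15, adjusted p = 0.050) without benign replicates 4 and 6, where S100a13 was highest at 65.6 and 48.6 CPM, and -0.47 (SE 0.25, adjusted p = 0.163) with the muscle score and Ucp1 as covariates. Its cargo genes moved in opposite directions: Fgf1 fell (log2 fold change -0.69, SE 0.28, adjusted p = 0.051), and Il1a rose from a mean of 1.0 to 3.23 CPM (log2 fold change 1.69, SE 0.57, adjusted p = 0.021). Il1a was low, with 39 counts in total over the benign libraries, and 3 of 6 tumors lay above the highest benign sample.

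The back-to-back neighbours S100a1 and S100a13 were also set side by side within each library, where scaling between libraries cancels. This pair was chosen after its values were seen, so no test is given. In benign samples S100a1 had 1.86 to 2.88 counts for each count of S100a13 (mean 2.35 ± 0.47, SD, n = 6). In tumors it had 4.36 to 7.59 (mean 5.57 ± 1.17, SD, n = 6). The groups did not overlap. Benign replicates 4 and 6, which had the highest benign CPM of both genes, also had the highest benign ratios (2.81 and 2.88). Replicate 3 followed at 2.61, and replicates 1, 2 and 5 stood at 1.86, 1.92 and 2.04. The part of muscle or brown fat in this ratio was not tested.

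S100a4 encodes a protein of fibroblasts, macrophages and lymphocytes that binds non-muscle myosin and is linked to cell motility. It had the deepest fall of the list. Its level ran from 7.26 to 30.4 CPM in benign samples (median 9.88) and from 1.02 to 3.25 CPM in tumors (median 1.89). Every tumor lay below every benign sample, and the log2 fold change was -2.76 (SE 0.40, edgeR adjusted p = 7.8e-05), a mean 6.86 times lower in tumors. The tumor values rest on 8 to 27 counts a library. Without benign replicate 1, the library with lymphocyte RNA and the highest S100a4, the log2 fold change was -2.33 (adjusted p at most 3.9e-04 whichever library was left out). Myh9, the non-muscle myosin heavy chain that S100A4 binds, did not pass the test (log2 fold change 0.30, SE 0.31, adjusted p = 0.440).

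Most stromal markers were lower in tumors as a group, as S100a4 was. All 8 fibroblast markers were lower in tumors, with a sum of 2578 to 5269 CPM in benign samples and 240 to 497 CPM in tumors. Of 9 macrophage markers 7 were lower, with a sum of 548 to 1150 CPM in benign samples and 313 to 526 CPM in tumors. All 6 endothelial markers were lower, with sums of 526 to 1023 and 76.7 to 92.0 CPM. The part of these cell types in the falls of S100a4, S100a6 and S100a10 was not tested.

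S100a6 encodes calcyclin, a protein of fibroblasts and dividing epithelial cells that binds annexins and Cacybp, a component of ubiquitin ligase complexes. It ran from 89.5 to 182 CPM in benign samples (median 153) and from 14.3 to 116 CPM in tumors (median 33.8). Tumor replicates 2 and 3 stood at 116 and 106 CPM, within the benign range, while the other 4 tumors lay between 14.3 and 40.1 CPM, below every benign sample. The log2 fold change was -1.42 (SE 0.48, edgeR adjusted p = 0.022). The call was lost without benign replicates 3, 4 and 6 (-1.26, SE 0.61, adjusted p = 0.116) and with the muscle score and Ucp1 as covariates (-1.37, SE 0.70, adjusted p = 0.146). Cacybp fell as well, with every tumor below every benign sample (log2 fold change -0.77, SE 0.18, adjusted p = 0.0024).

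S100a10 encodes p11, which forms a tetramer with annexin A2 at the plasma membrane and, unlike other S100 proteins, is held in its active shape without calcium. Its fall was the most uniform of the list. Benign samples lay between 144 and 199 CPM (median 159) and tumors between 53.4 and 64.9 CPM (median 62.5), with no overlap. The log2 fold change was -1.44 (SE 0.11, edgeR adjusted p = 2.0e-07), a mean 2.71 times lower in tumors. The coefficient of variation was 14.1% in benign samples and 6.97% in tumors. Leaving out any sample moved the log2 fold change only between -1.48 and -1.34.

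Anxa2, the partner of p11, fell as well, from 546 ± 140 to 298 ± 100 CPM (SD, n = 6 each; log2 fold change -0.87, SE 0.25, edgeR adjusted p = 0.0085). The log2 ratio of S100a10 to Anxa2 counts within a library was -1.68 ± 0.40 in benign samples and -2.21 ± 0.44 in tumors (SD, n = 6 each). Ratios of counts were held to a stricter threshold, an adjusted p under 0.05. The difference of -0.53 did not pass it (two-sided exact permutation p = 0.061, adjusted over 3 ratios p = 0.091). A change in S100a10 beyond that of Anxa2 was thus not shown at that threshold. Without tumor replicate 1 the difference was -0.64 and passed (exact permutation, adjusted p = 0.049). Ahnak, a giant scaffold protein that the complex binds, fell with a log2 fold change of -1.35 (SE 0.41, adjusted p = 0.013).

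S100a11 encodes calgizzarin, a keratinocyte and epithelial protein that binds annexin A1 and takes part in membrane repair. It had the highest level of the list in both groups, from 216 to 357 CPM in benign samples (median 283) and from 207 to 394 CPM in tumors (median 273). The ranges overlapped almost wholly, and the gene did not pass the test (log2 fold change 0.04, SE 0.18, edgeR adjusted p = 0.864). Anxa1, its partner, fell from 283 ± 87.2 to 127 ± 59.2 CPM (SD, n = 6 each; log2 fold change -1.16, SE 0.31, adjusted p = 0.0061). The log2 ratio of S100a11 to Anxa1 counts rose from 0.02 ± 0.37 in benign samples to 1.29 ± 0.39 in tumors (SD, n = 6 each). This difference of 1.27 passed (two-sided exact permutation p = 0.00216, the smallest that the regroupings of 6 against 6 can give, adjusted over 3 ratios p = 0.0065), with 6 of 6 tumors above every benign sample.

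**Figure D4:**
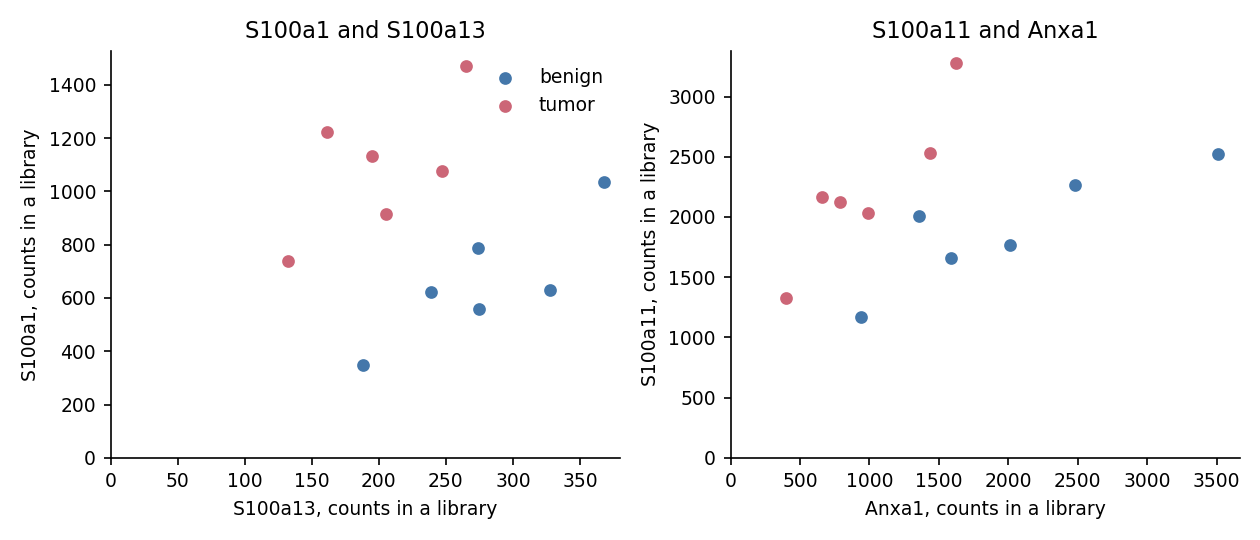
Counts of S100a1 against S100a13 (left) and of S100a11 against Anxa1 (right) in each library, with 6 benign samples in blue and 6 tumors in red and both axes from 0. In both panels the tumors have more of the first gene for each count of the second, at 4.36 to 7.59 counts of S100a1 for each count of S100a13 against 1.86 to 2.88 in benign samples.

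S100a11 and S100a6 were highest in the same tumors. S100a11 stood at 348 and 394 CPM in tumor replicates 2 and 3, the replicates with the most S100a6, and lay between 207 and 274 CPM in the other 4 tumors. Tumor replicate 1 had the least of both genes. Anxa1 was likewise highest in tumor replicates 2 and 3, at 197 and 195 CPM, and lowest in replicate 1 at 62.0 CPM.

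S100a14 encodes an epithelial S100 protein that lies next to S100a13 on the chromosome. It was low, and among tumors it varied more than any other tested member, with a coefficient of variation of 141%. Benign samples ran from 0.71 to 8.87 CPM (median 3.0) and tumors from 0.31 to 20.8 CPM (median 2.67), resting on 2 to 163 counts a library. The gene did not pass the test (log2 fold change 0.60, SE 0.86, edgeR adjusted p = 0.575), and the sign rests on tumor replicate 5 (20.8 CPM), without which the log2 fold change was -0.49. Tumor replicates 1 and 6 had the lowest tumor values and benign replicates 1 and 6 the lowest benign values.

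S100a8 and S100a9 encode the subunits of calprotectin, the main calcium-binding protein of neutrophils. Both were close to the detection limit in every sample. S100a8 had 1 to 10 counts a library, with 0.71 ± 0.41 CPM in benign samples and 0.73 ± 0.34 CPM in tumors (SD, n = 6 each; two-sided exact permutation p = 0.931). S100a9 had 0 to 7 counts in benign libraries and 0 to 3 in tumors, and no tumor exceeded 3 counts, the limit that a count of 0 allows (0.41 CPM at the mean library size). Its mean difference did not pass an exact permutation test (two-sided p = 0.182), and any difference in either gene was not detectable at this depth. Benign replicate 1 had the highest S100a9, at 7 counts.

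The log2 ratio of S100a8 to S100a9 counts differed by 1.16 between groups without passing (two-sided exact permutation p = 0.199, adjusted over 3 ratios p = 0.199). Neutrophil markers were scarce as well. Of 12 listed, 9 were in the table and 5 were tested, with 1 higher and 2 lower in tumors. Ngp was at 0 in 11 of 12 samples, and Mpo, Elane and Mmp8 had at most 6, 5 and 4 counts in any sample. The summed list ran from 25.2 to 243 CPM in benign samples and from 10.6 to 200 CPM in tumors, and its largest single values came from Ltf and Cd177, of which Ltf is also a milk protein of mammary epithelium.

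Set per kilobase of transcript (CPM divided by the median length of the coding transcripts), the levels can be set in order. In benign tissue S100a11 led with a mean of 550 CPM per kb, clear of S100a10 at 287, and S100a10, S100a6 (242) and S100a1 (164) followed with overlapping ranges. S100a13 (59.2), S100a4 (33.4) and S100b (17.4) came next, each overlapping its neighbour in this order, and S100a14, S100a8 and S100a9 were below 4 CPM per kb. In tumors S100a11 led again at 565 CPM per kb, and S100a1 at 225 came second, above S100a10 (106) in 6 of 6 tumors and without overlap. S100a6 (90.5), S100b (55.4) and S100a13 (36.0) followed, where S100a6 exceeded S100b in 3 of 6 tumors, so their order was not settled. S100a4 dropped to 4.87 CPM per kb, clear of S100a8 at 1.5 in tumors. Summed over the 10 genes, the plain CPM ran from 609 to 1059 in benign samples and from 481 to 867 in tumors, with overlapping ranges.

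**Figure D5:**
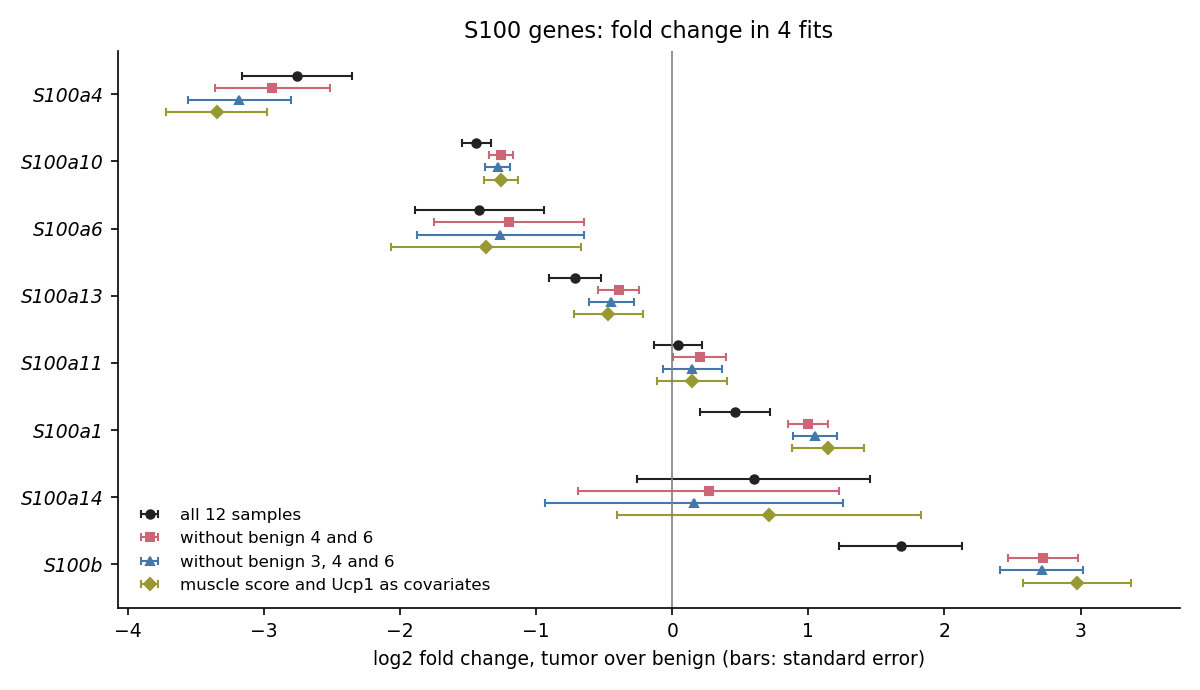
Log2 fold change of tumor over benign with its SE for the 8 tested S100 genes in 4 fits: all 12 samples, without benign replicates 4 and 6 (Ucp1-rich), without benign replicates 3, 4 and 6 (muscle-rich), and with a muscle score and Ucp1 as covariates. S100a1 moves from 0.46 to 1.0 or more and S100b from 1.68 to 2.71 or more in the other 3 fits, while S100a4 and S100a10 stay lower in tumors in all 4.

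Other family members outside the list were few. Of 8 such genes 3 were in the table and 1 was tested, S100a16, a broadly expressed epithelial member that lies between S100a14 and S100a4. It rose from 92.9 ± 11.8 to 139 ± 21.5 CPM (SD, n = 6 each; log2 fold change 0.58, SE 0.12, edgeR adjusted p = 0.0014), with every tumor above every benign sample. S100a3 was at 0 to 6 counts in all samples but tumor replicate 3, which had 37 counts, and S100a7a was at 0 to 10 counts.

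Among 27 genes of S100 partners and receptors 23 were tested, of which 3 were higher, 12 lower and 8 did not pass, with a median log2 fold change of -0.58. Over all tested genes the shares were 28.2% higher and 34.8% lower and the median was -0.06, and nothing particular to the partner genes is drawn from their counts. Besides Il1a, Bsg rose (log2 fold change 0.72, SE 0.24, edgeR adjusted p = 0.023), the receptor for S100A9 that also carries lactate transporters to the membrane. Atp2a2, the SERCA calcium pump bound by S100A1, rose by 0.64 (SE 0.21, adjusted p = 0.021). The other secreted-S100 receptors, Ager at 3.06 ± 1.48 and 3.15 ± 2.37 CPM and Tlr4 at 13.4 ± 2.28 and 20.1 ± 12.7 CPM in benign samples and tumors (SD, n = 6 each), did not pass. Anxa11 also fell without overlap (log2 fold change -0.86, SE 0.17, adjusted p = 7.3e-04).

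The deepest falls among partners were in genes of muscle and fat. Ryr1 and Pygm, the ryanodine receptor and glycogen phosphorylase of skeletal muscle, had log2 fold changes of -8.92 and -8.70, but the benign level came from replicates 3, 4 and 6. Ryr1 ran from 672 to 2144 CPM in those 3 samples and from 1.91 to 7.99 CPM in the other 3 benign samples, against 0 to 5.11 CPM in tumors. Cd36, the fatty acid transporter of fat and endothelium that also binds calprotectin, fell from 2116 ± 618 to 22.7 ± 7.49 CPM (SD, n = 6 each; log2 fold change -6.54, SE 0.32, edgeR adjusted p = 7.0e-09). The filter asks for enough counts in as many samples as a group holds, and 4 partner genes did not pass it. Syt1, Ryr2 and Gfap had at most 3, 23 and 37 counts in any library. Atp2a1, the fast-muscle SERCA pump, reached 19156 CPM in a muscle-rich benign sample and at most 23.7 CPM in tumors.

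For each tested S100 gene, the genes whose log2 CPM rose and fell most like it within groups were also found, by the Pearson correlation of values centred on each group's mean over 12 samples. These are the highest of all tested genes, so they are descriptions. S100b was closest to Dtnbp1 (r = 0.98), Etfb (0.96) and Nudt12 (0.95), and S100a1 to Gbe1, Ormdl3 and Ahcyl1 (each 0.94). Both sets leaned on benign replicates 4 and 6, without which r was 0.90, 0.75 and 0.72 for S100b and 0.66, 0.68 and 0.72 for S100a1. S100a11 was closest to Anxa5 (0.95), another annexin, and this r was 0.95 without those replicates too. S100a11 and S100a6 shared Pgpep1 among their 3 closest genes (0.93 and 0.94). Prag1 (0.93) was the third for S100a11, and Lysmd2 and Peg3 (each 0.94) came with Pgpep1 for S100a6. S100a4 was closest to B3galt4 (0.95), Elf4 (0.92) and Kat5 (0.90). S100a10 was closest to Zbtb8a (0.95), Snx10 (0.95) and Zfand6 (0.93), and S100a13 to Btd (0.95), Rtf2 (0.93) and Tmem220 (0.92). Without benign replicates 4 and 6 these were 0.90, 0.89 and 0.75 for S100a10 and 0.95, 0.82 and 0.76 for S100a13. S100a14 was closest to Sema4c (0.95), Ier5l (0.94) and Fkbp10 (0.94).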

How the data were processed

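RNA was extracted with TRIzol and RNeasy columns, enriched for poly A and sequenced as paired reads with a directional kit. Per the labels' processing notes, the authors trimmed reads with Trim Galore and estimated transcripts with Salmon on mm10, with DESeq2 named as well. The deposited values are estimated counts per gene, given as whole numbers. Versions and the gene annotation are not given in the sources used here. No column lacked a sample (0 in all). The members and gene lists were chosen with earlier results of these data known.

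Counts were fitted in edgeR 4.0.16 (R 4.3.3) over all 12 samples with TMM scaling, after filterByExpr (minimum count 10, minimum total 15), without covariates. Calls used an adjusted p under 0.1. DESeq2 1.42.0 and the other alternatives are given at the end. The 3 ratios of counts (0.5 added to each gene) had exact permutation tests over all regroupings of 6 against 6, with a threshold of 0.05. Single-gene permutation tests of mean CPM were also exact. The script was tested on simulated data. The labels do not say that samples of a group came from separate mice, so p-values measure the spread between these samples. No library repeated another: the closest pair within a group differed at a chi-square of 13 per degree of freedom. Counting error alone limits a library with 0 counts to 3 counts.

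All list members are named. From the partner and family lists the 3 largest rises and falls among called genes, direct partners and genes below the filter are named, and the 3 genes most like each member (Pearson r, mean of at least 5 CPM in a group). Positions and lengths are from GENCODE M21, and promoter windows from RefSeq, both on GRCm38. Same-numbered tumors and benign samples come from different mice and were not paired. Values of 1 further marker gene are not reported here.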

Additional observations from a re-analysis of the deposited data

Results flagged for a closer look

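Groups of 6 values were screened for a sample far from the others by Dixon's ratio (critical value 0.625). Of 20 groups, 2 were past it, where chance gives about 1 in 20. S100a10 in tumor replicate 1 was low at 53.4 CPM, with the other 5 tumors between 60.9 and 64.9 CPM. S100a14 in tumor replicate 5 was high at 20.8 CPM (163 counts), with the other 5 tumors between 0.31 and 6.14 CPM. Tumor replicate 5 was also the tumor with the most skeletal muscle RNA (162 CPM over the markers) and the only tumor with Ucp1 counts, and their part in its S100a14 level was not tested.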

How the results depend on the processing

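Beside leaving out single libraries, 166 alternative values were computed, of which 146 were held the same and none reversed. A fold change or ratio was the same if it kept its direction and its side of the threshold. A count of genes was the same if it stayed near the main count, such as 3 members lower without the muscle-rich samples against 4. Alternatives were DESeq2, 3 other scalings, 2 other filters, a threshold of 0.05, a replicate block, covariates and sets of benign samples left out. The S100a1 log2 fold change passed with total counts as scaling (0.60), when filtering at a sum of 1 count (0.54) or at a minimum of 10 counts per library (0.52), without the 3 muscle-rich benign samples (1.05), without the 2 Ucp1-rich ones (1.0) and with both scores as covariates (1.15). In those 6 settings 2 members were higher in tumors. Over all tested genes, 4058 of 13191 were higher with total counts, and 4571 of 16411 and 3681 of 11227 with the 2 filters. Without the muscle-rich and without the Ucp1-rich samples 3629 of 13604 and 3808 of 13478 were higher. With the covariates 2 members were lower and 1 partner gene was higher, S100a6 (-1.37) and S100a13 (-0.47) losing their calls. Over all 13191 tested genes that fit called 2905 higher and 3472 lower, against 3720 and 4594 in the main fit. S100a6, at -1.42 in the main fit, also lost its call without the muscle-rich samples (-1.26). The cause was not tested. The members whose groups do not overlap were 5 without the muscle-rich and 4 without the Ucp1-rich samples, where 44.4% and 40.5% of tested genes do not overlap.

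Leaving out each library in turn gave 1 to 2 members higher, 4 lower in every fit, and 2 to 3 without overlap. Over all tested genes (13276 to 13379) these fits called 3539 to 4188 higher and 4208 to 4551 lower, and the member counts are read against those. The share of all tested genes without overlap was not computed for these fits. Other family genes stayed at 1 higher and 0 lower, and partner genes ranged from 3 to 4 higher and from 11 to 13 lower. Log2 fold changes ranged from 0.37 to 0.71 for S100a1, -2.89 to -2.33 for S100a4, -1.73 to -1.16 for S100a6, -1.48 to -1.34 for S100a10, -0.79 to -0.55 for S100a13 and 1.54 to 2.25 for S100b. S100a11 ranged from -0.010 (without benign replicate 3) to 0.18 and was -0.00047 without tumor replicate 3. S100a14 ranged from -0.49 (without tumor replicate 5) to 1.09. The log2 ratios ranged from 0.69 to 1.47 for S100a8 to S100a9, -0.64 to -0.41 for S100a10 to Anxa2, and 1.17 to 1.38 for S100a11 to Anxa1.

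With the replicate number as a block, the ratio of S100a10 to Anxa2 (-0.53) passed (exact sign-flip, adjusted p = 0.047), partner genes went from 12 to 13 lower, and no call of an S100 gene changed, S100b being at 1.98. Same-numbered deviations correlated between -0.12 and 0.10 and 0 of 12 samples were closest to their own number, so the numbers do not pair samples. S100a4 and S100a14 could not be fitted at the minimum of 10 counts per library, and depth limits S100a8 and S100a9 (0 to 10 counts). At a sum of 1 count their log2 fold changes were 0.09 (SE 0.49) and -1.10 (SE 0.82), and neither passed.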
